A study of Mus musculus with 6 samples.

Results

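The core histone genes encode the H2A, H2B, H3 and H4 proteins around which DNA is wrapped in the nucleosome. The genes described here were chosen by name, as every row of the count table that belonged to a protein-coding mouse gene of the H2ac, H2bc, H3c or H4c series, under the current symbol or the older Hist symbol. This gave 61 genes out of 55416 rows, of which 18 encode H2A, 18 H2B, 12 H3 and 13 H4. By their older names, 48 belong to the Hist1 cluster, 10 to Hist2, 2 to Hist3 and 1 to Hist4. A further 3 symbols of these series (Hist3h2bb-ps, Hist1h2aj and Hist1h2al) were annotated as pseudogenes and were left out. H2aw, H2bu2 and H4f16 entered by their older names (Hist3h2a, Hist3h2ba and Hist4h4), because RefSeq now names them outside the numbered series. H2bc21 (Hist2h2be) is known as the gene of H2BE, an H2B variant of neurons that is made outside S phase, so the name replication-dependent, used for these clusters, does not hold for it.

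Replication-dependent histone mRNAs are made in S phase, when new DNA has to be packaged. As background, they normally carry no poly(A) tail: the transcript is cut just behind a short stem-loop that follows the stop codon, and the stem-loop binding protein SLBP holds it there, with the U7 small nuclear ribonucleoprotein guiding the cut. Some genes of these clusters also give longer mRNAs that run past the stem-loop and are polyadenylated, and histone variants such as H3.3 come from genes with ordinary tailed mRNAs. A library made from tailed RNA therefore samples the latter kinds, and the values below are levels in such libraries and not totals of histone mRNA.

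RNA was sequenced from MB21, a mouse medulloblastoma line that carries a ptch mutation and grows without attachment in B27 medium. There were 3 libraries of cells given DS-1-38 (DS38), a derivative of benzarone, at 10 uM for 1 day and 3 of cells given the vehicle DMSO for the same time. The series' design text names 5 days instead; the sample titles and the treatment protocol give 1 day, which is used here. Nothing in the labels says whether each library came from its own culture. The p-values thus reflect the spread among the 6 libraries only, and that spread may be technical.

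The DMSO libraries held 38840296 to 50014681 counts each, and the DS38 libraries, all of them deeper, 60434089 to 84044428. The 61 genes together took 5095 to 9746 counts per library. A count of 0 in all libraries allows up to 0.00831 CPM (read counts scaled to a common library total), taking 3 counts of their summed total as the limit, which covers counting error only. All 12 markers of the granule neuron lineage and of hedgehog-type medulloblastoma were measured, with summed levels of 3199.8 to 3294 CPM in DMSO and 3157 to 3174 CPM in DS38. The sums hide changes in both directions: 3 of the 12, Atoh1 and Barhl1 among them (log2 fold changes of 0.33 and 0.27), rose and 7, Neurod1 and Ptch1 among them (-0.37 and -0.19), fell by edgeR; these 4 were chosen after their values were seen. No microglial marker of 5 passed the filter on low counts, and the endothelial markers Cldn5 and Kdr were at 0. Summed fibroblast markers were 0.499 to 0.620 CPM in DMSO and 0.634 to 1.2 CPM in DS38, summed astrocyte markers, nearly all Slc1a3, 144 to 152 and 143 to 149 CPM, and summed oligodendrocyte lineage markers 75.8 to 76.3 and 71.9 to 76.1 CPM. Their part in the results below was not tested.

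The stem-loop was searched in the annotated transcripts (GENCODE M21) behind the stop codon, as the 16-base histone 3′ stem-loop consensus with at most 1 mismatch. It was found, without any mismatch, in 42 of the 61 genes, 68.9%. An exact match lay behind the coding sequence in 53 of 22527 protein-coding genes (0.235%), these 42 included. The sites below are shown because they are the element that replaces the poly(A) tail, from genes of each class and with different levels. Capitals mark the 16 bases of stem, loop and stem, and lower case the 5 bases on either side.
H2bu2: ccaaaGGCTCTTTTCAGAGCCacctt
H2bc6: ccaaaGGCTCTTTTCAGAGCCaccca
H2aw: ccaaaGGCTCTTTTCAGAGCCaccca
H3c8: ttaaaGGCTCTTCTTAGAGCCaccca
H3c3: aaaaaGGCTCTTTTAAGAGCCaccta
H4c9: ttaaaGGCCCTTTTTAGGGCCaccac
H4c11: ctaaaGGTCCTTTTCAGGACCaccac
In each site the 6 bases at the left end of the capitals pair with the 6 at the right end around a loop of 4. The H2A and H2B sites shown share the same 16 bases. The sites began 21 to 58 bases behind the stop codon.

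The 2 H2B genes with the most reads, H2bc21 and H2bc4, had no such site in their annotated transcript. Their transcripts ran 2192 and 742 bases past the stop codon. The closest 16 bases within the 100 bases behind the stop codon had 5 mismatches in H2bc21 and 6 in H2bc4. In 15 genes the annotated transcript ended within 2 bases of the stop codon, or 37 bases behind it in H3c13, so that it was too short to cover the stem-loop and nothing can be said of one. In 23 genes it ended within 100 bases behind the stem-loop and in 19 genes it ran on for 100 bases or more, by up to 2445 bases in H4f16. This 100-base limit was chosen after the values were seen.

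Reads of these genes were unevenly spread. Levels are CPM after TMM scaling, edgeR's correction for composition. H2bc21 alone took 45.9% of the summed CPM of the 61 genes. H2bc21, H2bc4 and H2bu2 took 66.0% of it, and with H2aw, H4c9 and H2bc6 80.9%. These are shares of reads and depend on transcript length. Per kilobase of gene length, the mean level was 21.6 CPM for H2bc21, 19.3 for H2bu2, 11.2 for H2bc4, 9.44 for H4c9, 3.24 for H2aw and 1.02 for H2bc6. The last of these, with the longest gene model, was thus no higher per kilobase than several genes with fewer reads: H3c8 was at 2.32, H2ac23 at 2.65 and H4c12 at 3.37 CPM per kilobase.

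**Figure D1:**
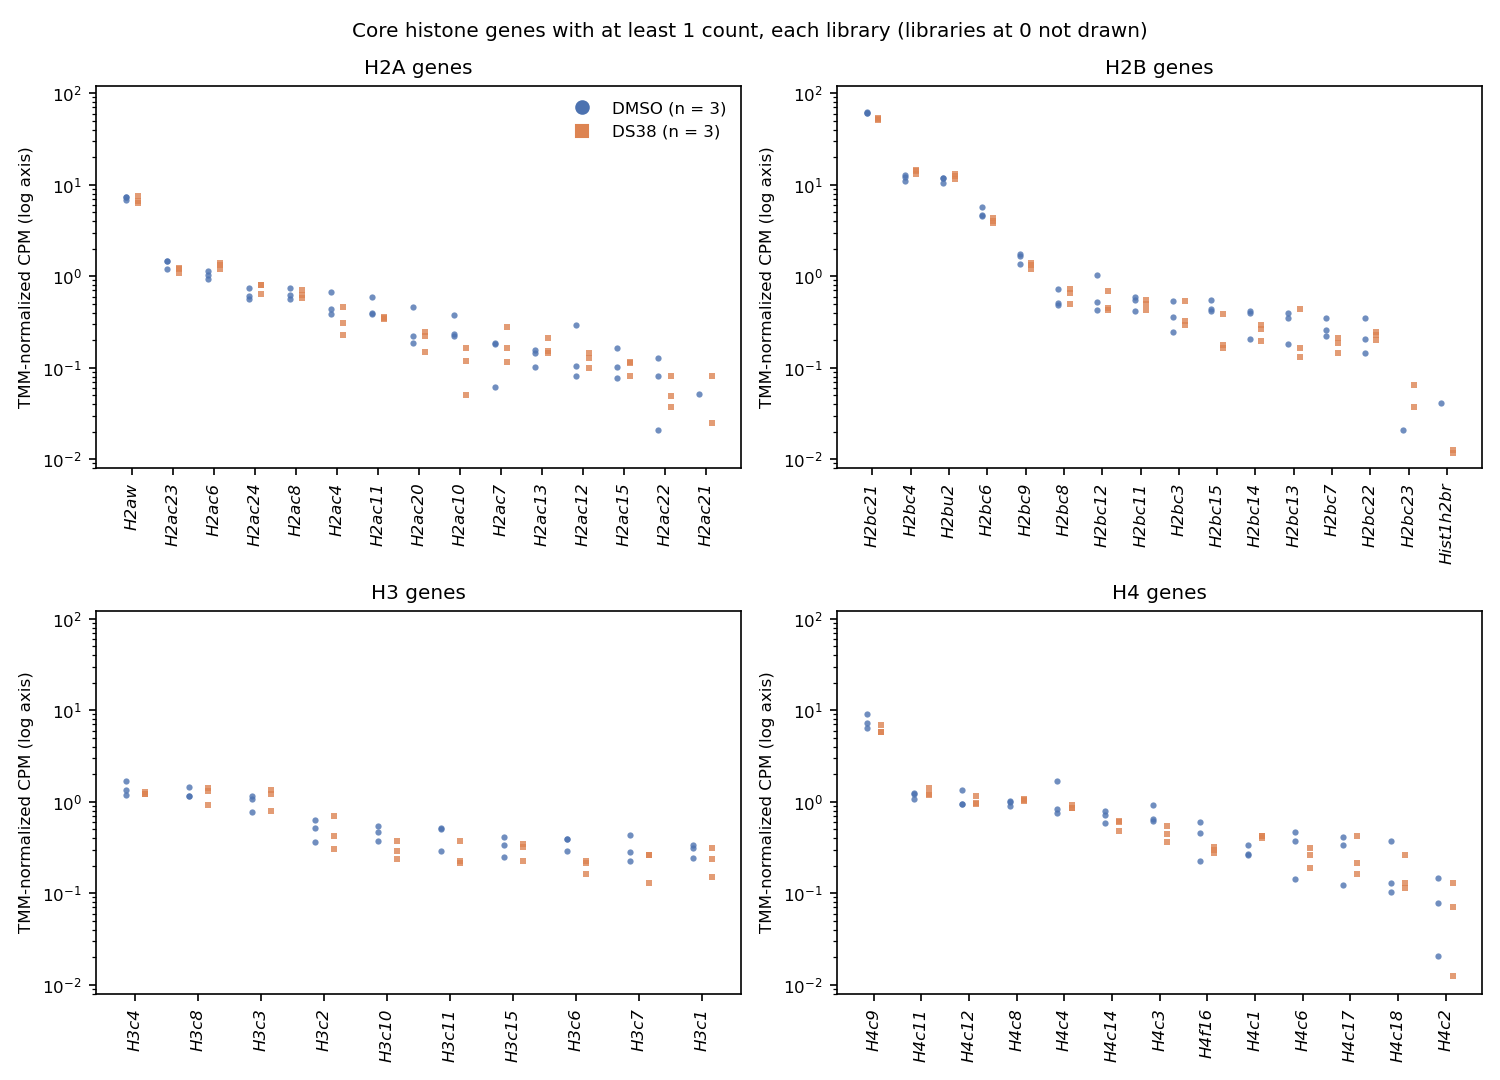
TMM-normalized CPM (log axis) of the core histone genes with at least 1 count, by class, with each of the 3 DMSO libraries (blue circles) and 3 DS38 libraries (orange squares) as a point; libraries at 0 are not drawn. H2bc21 stands near 60 CPM in DMSO, 5 further genes lie above 2 CPM, and the others lie below 2 CPM with points that spread widely between libraries.

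The 6 genes with a mean of 2 CPM or more all had annotated transcripts that ran well past the coding sequence: H2bu2, H2aw, H4c9 and H2bc6 for 100 bases or more past the stem-loop, and H2bc21 and H2bc4 without a stem-loop found. The 19 genes that ran on past the stem-loop held 32.7% of the summed CPM, with a median level of 0.638 CPM. The 4 long ones without a stem-loop held 56.4%, but 2 of them, H2bc23 and Hist1h2br, had 8 and 4 counts in all. These 2 genes share an identical annotated transcript, so their low counts are uncertain. The 23 genes that ended close behind the stem-loop held 8.35%, with a median of 0.294 CPM and none above 1.27 CPM. The 15 genes that ended near the stop codon held 2.51%.

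Per kilobase, the median was 0.863 CPM for the genes that ran on past the stem-loop and 0.744 for those that ended close behind it. It was 5.61 for the 4 long ones without a stem-loop, which ranged from 0.0049 to 21.6, and 0.351 for those that ended near the stop codon. Across the 61 genes, gene length and CPM had a Spearman rho of 0.42, and gene length and CPM per kilobase 0.12. These are descriptions over genes that share libraries and much of their sequence.

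**Figure D2:**
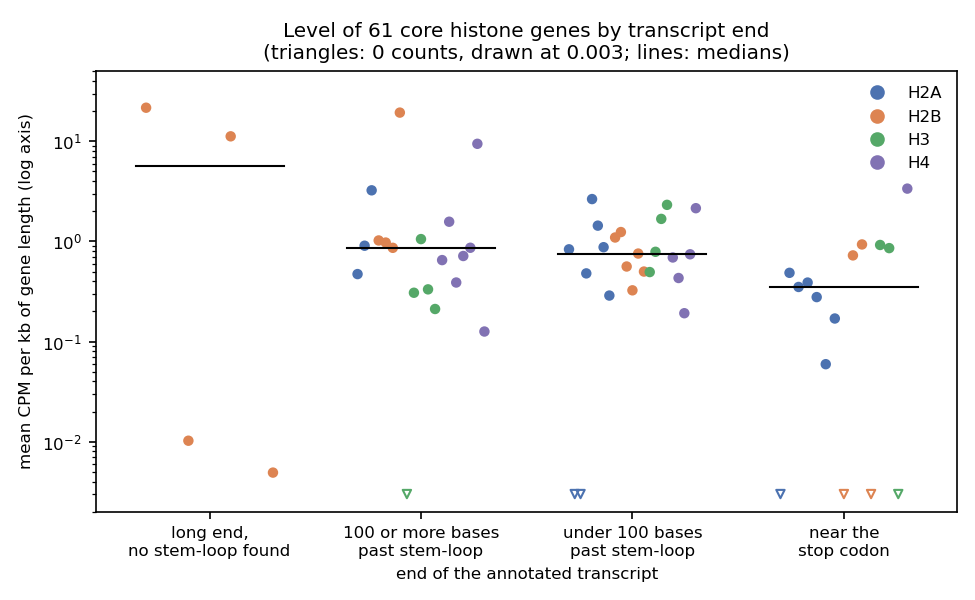
Mean CPM per kilobase of gene length (log axis) of the 61 genes, grouped by where the annotated transcript ends and coloured by class; lines are medians and open triangles are genes with 0 counts. The highest points, at 21.6 and 19.3, are H2bc21 in the group without a stem-loop and H2bu2 in the group that ran on past it, and the groups overlap.

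For 7 genes the count was 0 in every library: H2ac1, H2ac18, H2ac19, H2bc1, H2bc18, H3c13 and H3c14. H2ac1 and H2bc1 encode testis histones and had sequence of their own, with 76.2% and 61.8% of their 50-base words found in no other annotated gene. For the other 5 genes no 50-base word was found in that gene alone. Those 5 were also all of the 61 genes without such a word. A word on either strand of an overlapping gene counted as shared. On the same strand, H2ac18 and H3c14 overlap exons of Gm20634, and H2bc18 overlaps those of Gm42743. How the authors' counting treated reads that match several genes is not given in the sources used here, so a 0 for these 5 is not evidence that the gene was silent. The share of words found in 1 gene was 6.0% for H2ac10, 6.5% for H2ac23, 69.4% for H2bc4, 71.1% for H4c9, 83.7% for H2bc6 and 100% for H2bc21. For H3c11 it was 12.4%, for H2bc15 13.6% and for H4c12 28.5%. For H2bc23 and Hist1h2br, which share an identical annotated transcript, it was 2.7% and 11.3%. Values of genes with low shares, H2ac10, H2ac23 and these among them, are uncertain for the same reason. Over the 61 genes this share and CPM per kilobase had a Spearman rho of 0.37, as a description.

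The filter on low counts left 44 of the 61 genes for the comparison of DS38 with DMSO. The 17 others were the 7 genes at 0 and 10 genes with 4 to 67 counts over the 6 libraries. Of the 44, 1 rose and 3 fell by edgeR's quasi-likelihood test at an adjusted p under 0.05, which is 9.09%. Over all 17679 genes tested 24.5% passed, 12.9% higher and 11.7% lower. At an unadjusted p under 0.05 there were 8 of the 44, against 35.8% of all genes tested. In bulk RNA, fewer cells that express a gene and less of its RNA per cell cannot be told apart. H2bc4 rose, and H2bc21, H2bc6 and H2ac10 fell. The number of the 61 genes past the threshold was 5 with RLE scaling, against 24.5% of all genes tested in that way, 3 with library size alone (27.3%), 4 with no filter (13.7%) and 3 with a stricter filter of 1 CPM (32.1%). It was 2 with DESeq2 (25.3%), 5 with limma-voom (24.5%), 4 with robust dispersion (24.8%), 5 with the replicate number as a block (22.7%) and 3 after thinning to the smallest library (23.2%).

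H2bc21, the gene of H2BE and the only one of the 61 with over 20 CPM, was at 60.5, 62.0 and 60.7 CPM in DMSO and at 53.8, 51.4 and 51.9 CPM in DS38. Every DS38 library was below every DMSO library, and the gap between the groups was larger than the spread within either. The means were 61 ± 0.811 and 52.4 ± 1.26 CPM (SD, n = 3). The log2 fold change was -0.22 ± 0.034 (SE), with an adjusted p of 6.60e-05 by edgeR. It passed in all 15 alternatives run, with log2 fold changes of -0.24 to -0.19.

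H2bc4, an H2B gene of the Hist1 cluster whose annotated mRNA is spliced, was at 11.0, 12.2 and 12.9 CPM in DMSO and at 14.4, 14.1 and 13.1 CPM in DS38. The groups did not overlap, but the highest DMSO and the lowest DS38 library lay close together. Its log2 fold change was 0.21 ± 0.067 (SE), with an adjusted p of 0.0259 by edgeR. The call was lost without DMSO replicate 1 (adjusted p by edgeR 0.160), DMSO replicate 2 (0.0537), DS38 replicate 1 (0.116) or DS38 replicate 2 (0.0813).

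H2bc6, also an H2B gene of Hist1, was at 5.69, 4.72 and 4.60 CPM in DMSO and at 4.06, 4.34 and 3.86 CPM in DS38. Again no DS38 library reached the lowest DMSO library, and DMSO replicate 1 stood above the other two. The log2 fold change was -0.30 ± 0.105 (SE), with an adjusted p of 0.0403 by edgeR. Scaling by library size alone (0.0666) and DESeq2 (0.0510) ended this call, as did edgeR without DMSO replicate 1 (0.248), DS38 replicate 1 (0.0953), DS38 replicate 2 (0.0503) or DS38 replicate 3 (0.136). Its exons overlap those of Hist1h1e, a linker histone gene, and of Gm11398 on the same strand, so reads there cannot be assigned with certainty. Hist1h1e itself had a log2 fold change of -0.37 ± 0.183 (SE), with an adjusted p of 0.146 by edgeR.

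H2ac10, an H2A gene, had 62 counts in all 6 libraries, the fewest of the 44. It was at 0.225, 0.374 and 0.233 CPM in DMSO and at 0.0501, 0.163 and 0.117 CPM in DS38. The groups did not overlap, and the libraries within each group differed by a large part of their level. Its log2 fold change was -1.37 ± 0.471 (SE), with an adjusted p of 0.0373 by edgeR. It passed in 7 of the 12 alternatives that gave it an adjusted p. DESeq2, the stricter filter and thinning to the smallest library gave it none, so they could not have called it. The call was lost with no filter on low counts (0.0683) and without DMSO replicate 1 (0.0580), DMSO replicate 2 (0.213), DS38 replicate 1 (0.186) or DS38 replicate 3 (0.0867).

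**Figure D3:**
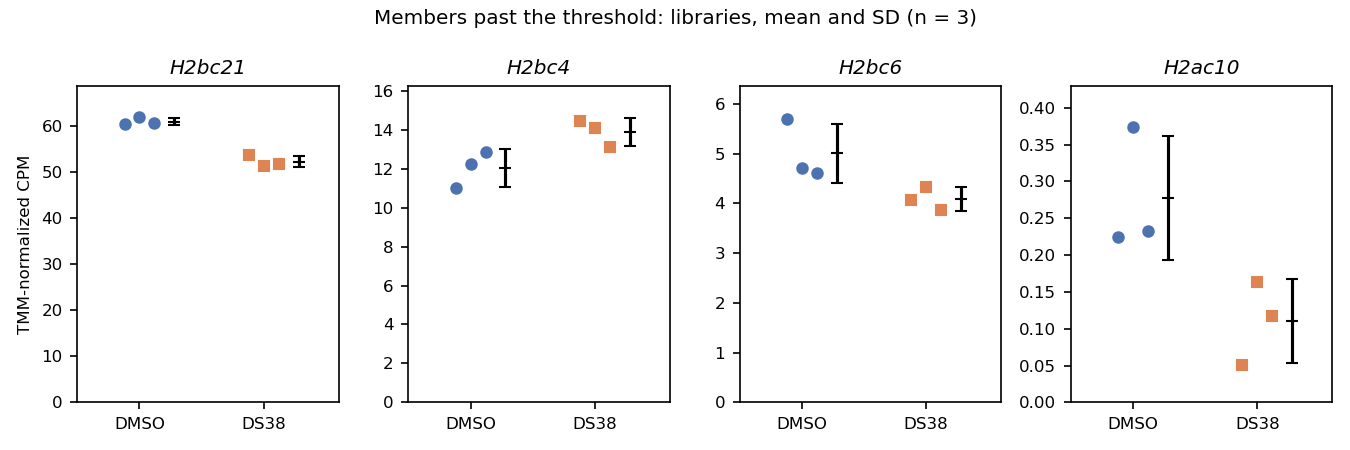
TMM-normalized CPM of the 4 genes that passed the test, one panel each with its own axis from 0; points are the 3 libraries of a group, and the bar beside them is mean and SD. H2bc21 fell from 61 to 52.4 CPM with little spread, H2bc4 rose, and H2bc6 and H2ac10 fell with groups that do not overlap.

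Of the 44 tested genes, the groups did not overlap in 12, with DS38 lower in 8 and higher in 4. Over all genes tested, the groups did not overlap in 38.6%, with DS38 lower in 17.9% and higher in 20.7%. The fitted log2 fold change was below 0 in 35 of the 44, against 49.2% of all genes, and its median was -0.26 against 0.004 for all genes. The median SE was 0.30 for these genes and 0.066 for all genes, and the median size of their log2 fold changes, regardless of sign, was 0.30 too. Below a mean of 2 CPM, a limit set after the values were seen, 38 of the genes were tested and 1 passed, which is 2.63%, against 7.71% of the 5668 genes at such levels. There, 31 of the 38 estimates lay below 0 with a median of -0.30, against 3069 of 5668 with a median of -0.04. At 2 CPM or more, 3 of 6 passed, against 32.5% of 12011 genes.

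Summed over the 61 genes, levels were 125.4, 130.1 and 131.7 CPM in DMSO and 121.7, 117.7 and 114.4 CPM in DS38. All DS38 sums were below all DMSO sums, and the log2 ratio of the means was -0.13. The groups no longer separated with library size alone: DMSO replicate 1 and DS38 replicate 1 were both at 122.6 CPM, DS38 marginally higher, and the ratio was -0.096. Without H2bc21 the sums were 65.0, 68.1 and 71.0 CPM in DMSO and 67.9, 66.3 and 62.5 CPM in DS38. These overlapped, and the log2 ratio of the means was -0.05.

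**Figure D4:**
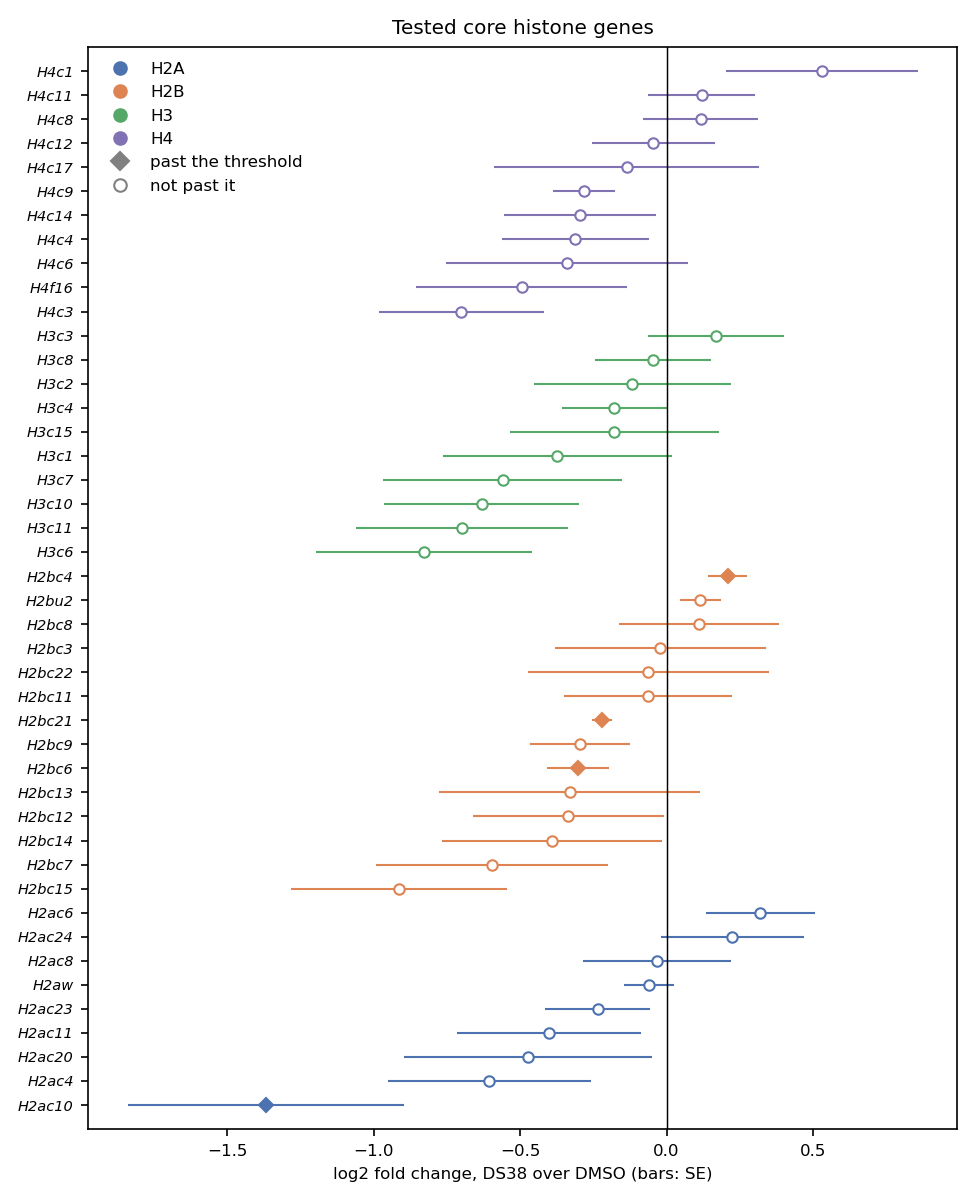
Log2 fold change of DS38 over DMSO with its SE for the 44 tested genes, coloured by class; filled diamonds passed edgeR's test and open circles did not. The 4 that passed are H2bc4, at 0.21, and H2bc21, H2bc6 and H2ac10, at -0.22, -0.30 and -1.37, and 35 of the 44 estimates lie below 0.

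H2A and H2B form a dimer, which joins the H3 and H4 tetramer last. In the H2A class 9 of 18 genes were tested and 1, H2ac10, fell. The summed level was 13 ± 0.623 CPM in DMSO and 12.3 ± 0.292 CPM in DS38 (SD, n = 3), a log2 ratio of -0.08, which moved to -0.042 under library size alone and to -0.12 without DMSO replicate 1. These sums overlapped between the groups, with DMSO replicate 1 at 12.3 CPM and DS38 replicate 1 at 12.6 CPM. H2aw was at 6.78, 7.28 and 7.27 CPM in DMSO and at 7.47, 6.34 and 6.56 CPM in DS38. Both the highest and the lowest library were of DS38, and the log2 fold change was -0.06 ± 0.085 (SE), with an adjusted p of 0.651 by edgeR. Its exons overlap those of Trim17 on the same strand. H2ac6 was at 0.942, 1.14 and 1.03 CPM in DMSO and at 1.19, 1.40 and 1.31 CPM in DS38. Every DS38 library was above every DMSO library, yet its log2 fold change of 0.32 ± 0.187 (SE) did not pass, with an adjusted p of 0.229 by edgeR. The log2 fold change was -0.24 ± 0.179 for H2ac23 and -0.60 ± 0.35 for H2ac4 (SE), neither past the threshold.

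In the H2B class 14 of 18 genes were tested, and 1 rose and 2 fell. The summed level was 94.9 ± 0.683 CPM in DMSO and 87.2 ± 2.47 CPM in DS38, a log2 ratio of -0.12, and most of this level was H2bc21. Only in this class were all DS38 sums below all DMSO sums, and this held with H2bc21 included. Without H2bc21 the H2B sums overlapped between the groups. H2bu2, which encodes an H2B of the Hist3 cluster, was at 11.8, 10.5 and 11.9 CPM in DMSO and at 13.1, 12.5 and 11.5 CPM in DS38. The groups overlapped, and the log2 fold change was 0.12 ± 0.070 (SE), with an adjusted p of 0.246 by edgeR. The 10 other tested H2B genes had mean levels under 2 CPM, and none of them passed. H2bc15 had the lowest estimate among them, with a log2 fold change of -0.91 ± 0.369 (SE) and an adjusted p of 0.0763 by edgeR; it passed with limma-voom (0.0458) and in edgeR without DS38 replicate 3 (0.0201), and it was singled out after its values were seen.

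In the H3 class 10 of 12 genes were tested and none passed edgeR's test, with 1 at an unadjusted p under 0.05 and none called by DESeq2 or limma-voom. DESeq2 gave no adjusted p for H3c6 or H3c11, those of smallest p by edgeR, so it could not have called them. The estimates were below 0 in 9 of the 10, with a median log2 fold change of -0.28. The summed level was 6.34 ± 0.544 CPM in DMSO and 5.55 ± 0.449 CPM in DS38, a log2 ratio of -0.19, which was -0.12 without DMSO replicate 2. These sums overlapped between the groups, with DMSO replicate 1 at 5.85 CPM and DS38 replicate 2 at 5.94 CPM. H3c4 was at 1.19, 1.66 and 1.34 CPM in DMSO and at 1.28, 1.22 and 1.21 CPM in DS38, and the groups overlapped. H3c6 was at 0.389, 0.291 and 0.388 CPM in DMSO and at 0.163, 0.212 and 0.223 CPM in DS38. Here no DS38 library reached a DMSO library, and the log2 fold change was -0.83 ± 0.37 (SE), with an adjusted p of 0.109 by edgeR. The log2 fold change was -0.70 ± 0.36 (SE) for H3c11, -0.18 ± 0.18 for H3c4, -0.05 ± 0.20 for H3c8 and 0.17 ± 0.23 for H3c3. With SEs of this size, changes of the extent seen in H2bc21 were not detectable in single H3 genes.

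In the H4 class 11 of 13 genes were tested and none passed edgeR's test, with 2 at an unadjusted p under 0.05 and none called by DESeq2 or limma-voom. DESeq2 gave no adjusted p for H4c1, so it could not have called that gene. The estimates were below 0 in 8 of the 11, with a median log2 fold change of -0.28. The summed level was 14.9 ± 1.76 CPM in DMSO and 12.9 ± 0.691 CPM in DS38, a log2 ratio of -0.21, which was -0.12 without DMSO replicate 3. These sums overlapped between the groups, with DMSO replicate 1 at 13.2 CPM and DS38 replicate 1 at 13.7 CPM. H4c9, the H4 gene with the most reads, was at 7.27, 6.41 and 9.0 CPM in DMSO and at 6.92, 5.84 and 5.74 CPM in DS38. The groups overlapped, and DMSO replicate 3 stood well above the other DMSO libraries. For H4c9 the log2 fold change was -0.28 ± 0.105 (SE), with an adjusted p of 0.0563 by edgeR. It passed with RLE scaling (0.0487), with no filter on low counts (0.0185), with the replicate number as a block (0.0412), without DMSO replicate 2 (0.0176) and without DS38 replicate 1 (0.0267), and gave 0.295 without DMSO replicate 3.

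H4c3 was at 0.614, 0.915 and 0.646 CPM in DMSO and at 0.539, 0.440 and 0.364 CPM in DS38. Every DS38 library was below every DMSO library, with a log2 fold change of -0.70 ± 0.28 (SE) and an adjusted p of 0.0754 by edgeR. H4c11 and H4c12 had log2 fold changes of 0.12 ± 0.18 and -0.05 ± 0.21 (SE). H4c1 had the highest estimate of the 44 genes, 0.53 ± 0.33 (SE), with an adjusted p of 0.256 by edgeR, and was singled out after its values were seen.

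Many H2A and H2B genes lie head to head and share 1 stretch of promoter DNA. Among the 61 genes 12 such pairs had starts within 600 bases of each other, and in 4 pairs both genes were tested. Both estimates had the same sign in 3 of the 4. For H2ac6 and H2bc4 the log2 fold changes were 0.32 and 0.21, and for H2ac20 and H2bc21 they were -0.47 ± 0.42 (SE) and -0.22. H2ac11 and H2bc11 had -0.40 and -0.06, and H2ac8 and H2bc8 had -0.03 and 0.11. Of these 8 genes H2bc4 and H2bc21 passed edgeR's test.

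The shared stretches beside H2bc4 and H2bc21 are shown because these H2B genes moved in opposite directions. Each is the 250 bases before the RefSeq start of the H2A partner, 5′ to 3′ on that gene's strand (minus), in build GRCm38.p6, at chr13:23683960-23684209 for H2ac6 and chr3:96220881-96221130 for H2ac20. The annotated starts of the partners lie 251 and 239 bases apart. Capitals mark matches on either strand to 3 motifs of histone promoters. The TATA box was searched as TATAAA. For the CCAAT box the letters were CCAAT. The octamer bound by OCT1 was ATTTGCAT.
H2ac6: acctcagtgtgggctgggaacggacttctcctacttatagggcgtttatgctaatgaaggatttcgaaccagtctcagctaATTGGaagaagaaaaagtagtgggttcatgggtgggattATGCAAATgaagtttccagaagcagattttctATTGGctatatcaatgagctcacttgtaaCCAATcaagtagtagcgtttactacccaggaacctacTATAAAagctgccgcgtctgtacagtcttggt
H2ac20: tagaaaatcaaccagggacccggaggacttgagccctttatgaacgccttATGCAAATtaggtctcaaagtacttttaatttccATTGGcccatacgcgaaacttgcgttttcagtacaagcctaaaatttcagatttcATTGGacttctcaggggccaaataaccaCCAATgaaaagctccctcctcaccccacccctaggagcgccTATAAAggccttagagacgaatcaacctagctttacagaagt
Both stretches hold 1 TATA box, 3 boxes of the CCAAT kind and 1 octamer. These counts are thus the same beside the gene that rose and the gene that fell. In both stretches TATAAA reads on the strand of the H2A partner and lies nearer its start than that of the H2B gene.

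RefSeq promoter windows (250 bases before to 50 after the start) were matched for 55 of the 61 genes. CCAAT was found on either strand in all 18 H2A, all 15 H2B and all 10 H3 windows, in 3 of 12 H4 windows and in 37.4% of all 32851 windows. The octamer was in 7 of 18 H2A and 7 of 15 H2B windows, in no H3 or H4 window and in 1.74% of all windows. The TATA box was in 11 of 18 H2A, 8 of 15 H2B, 4 of 10 H3 and 8 of 12 H4 windows and in 13.6% of all. The pairs above share promoter sequence, so their windows are not independent, and a match is a description of the letters only.

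Other genes of histone supply were read from lists. Among 33 tested genes of histone mRNA making and processing, 1 rose and 10 fell, with a median log2 fold change of -0.04. These calls were 33.3% of the list, against 24.5% of all genes tested and 32.5% of those at 2 CPM or more. Ccne2 and Ccne1, the E-type cyclins that activate CDK2 at the start of S phase, had log2 fold changes of -0.42 ± 0.033 and -0.26 ± 0.040 (SE), with adjusted p of 1.06e-08 and 4.65e-05 by edgeR. Srrt (ARS2), a partner of the cap-binding complex, fell by 0.20 on the log2 scale, and Cstf1, a cleavage stimulation factor subunit, rose by 0.14. Slbp, named after its values were seen because its protein binds the stem-loops shown above, was at 121, 123 and 124 CPM in DMSO and at 112, 111 and 117 CPM in DS38. No DS38 library reached a DMSO library, and the log2 fold change was -0.11 ± 0.030 (SE), with an adjusted p of 0.00899 by edgeR. Npat, the coactivator of histone gene transcription, also named after its values were seen, did not pass, at -0.04 ± 0.034 (SE).

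Among 30 tested histone chaperones and deposition factors, 17 fell and none rose by edgeR, with a median log2 fold change of -0.10. That is 56.7%. Of all genes tested 11.7% were called lower, and of those at 2 CPM or more 32.5% were called in either direction. Ubn2, a subunit of the HIRA complex that deposits H3.3, was at -0.40 ± 0.051 (SE), Atrx, which deposits H3.3 with DAXX, at -0.23 ± 0.036, and Npm1, a nucleolar chaperone, at -0.18 ± 0.027, all past the threshold. The spread of Ubn2 and Atrx was mostly within DMSO. Ubn2 was at 235, 226 and 187 CPM in DMSO and at 164, 159 and 168 CPM in DS38. Atrx was at 551, 522 and 481 CPM in DMSO and at 435, 440 and 447 CPM in DS38. With library size alone as scaling, 10 of the 30 fell, where 27.3% of all genes tested passed in either direction. No rise among the 30 had an unadjusted p under 0.05, and none was called in any alternative run. In a list of 28 S phase genes, all tested, 22 fell and none rose by edgeR (0 rises at an unadjusted p under 0.05). That is 78.6%, against the same shares of all genes, with a median log2 fold change of -0.15. With library size alone 18 of the 28 fell and 1 rose. Ccne2 and Slbp are both in this list and in that of processing, and Mcm2 is also in that of chaperones. Their falls are thus counted in each of these lists. Tyms, for thymidylate synthesis, and E2f8, a repressor of the E2F family, were at -0.30 ± 0.034 and -0.27 ± 0.032 (SE).

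Histone variants are also made outside S phase. Of 9 tested, 1 passed, which is 11.1%, against 24.5% of all genes tested. It was H3f3b, 1 of the 2 genes of H3.3, at 1290, 1261 and 1271 CPM in DMSO and at 1478, 1484 and 1525 CPM in DS38. All DS38 libraries were higher, with a log2 fold change of 0.23 ± 0.027 (SE) and an adjusted p of 2.15e-06 by edgeR. H3f3a, the other H3.3 gene, had a log2 fold change of -0.003 ± 0.028 (SE).

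Of the linker histones, which bind the DNA between nucleosomes, 7 of 10 were tested and 3 rose. That is 42.9% of those tested, against 12.9% of all genes tested called higher. H1f0, the replication-independent H1.0, was at 518, 513 and 546 CPM in DMSO and at 798, 799 and 756 CPM in DS38. The DS38 libraries were all far above the DMSO libraries, with a log2 fold change of 0.58 ± 0.031 (SE) and an adjusted p of 2.68e-11 by edgeR. Hist1h1c was at 0.38 ± 0.063 and H1fx at 0.27 ± 0.048 (SE), both past the threshold. Hist1h1b, Hist1h1e, Hist1h1d and Hist1h1a, the other 4 tested, had log2 fold changes of -0.49, -0.37, -0.14 and -0.12 and did not pass.

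**Figure D5:**
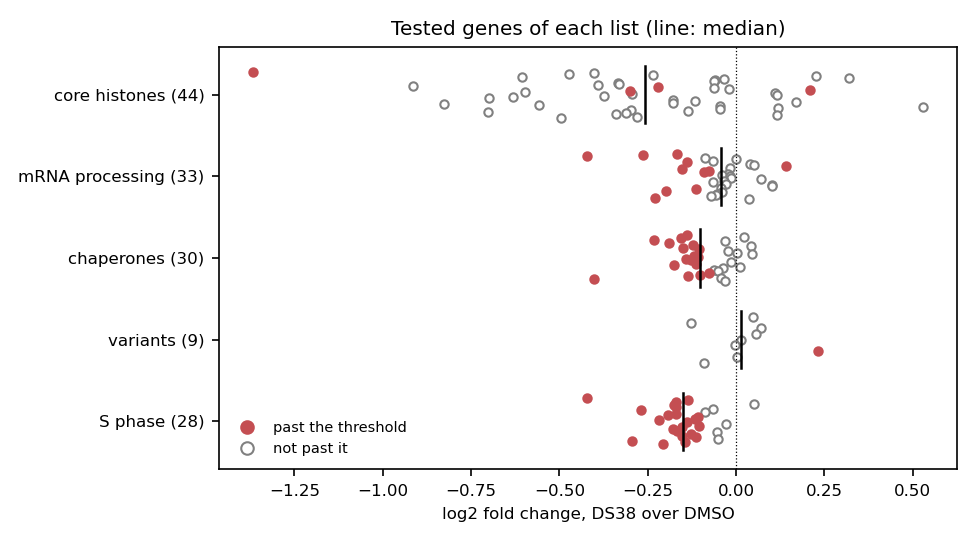
Log2 fold change of DS38 over DMSO for each tested gene of the core histones and of 4 other lists; red points passed edgeR's test, grey open points did not, and the black line is the median. The core histone estimates spread from -1.37 to 0.53 with few past the threshold, whereas the S phase genes lie close together around -0.15 with 22 of 28 past it.

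A list of RNAs known to lack a poly(A) tail was read beside the histone genes. Of 33 such RNAs listed, 13, among them Rn7sk and Rn45s, were not matched to a single row and are not analysed here. Of the 20 with a row, 4 passed the filter on low counts, with means of 0.277 to 0.803 CPM. None passed edgeR's test, DESeq2 (which gave an adjusted p for 3 of the 4) or limma-voom, with unadjusted p of 0.587 or above by edgeR. Rnu73b and Scarna17, those with the smallest p, had log2 fold changes of 0.14 ± 0.26 and 0.14 ± 0.29 (SE). The 38 tested core histone genes under 2 CPM were measured at levels like those of these 4. The other untailed RNAs with a row did not pass the filter, whereas 38 of the 55 core histone genes under 2 CPM did. These RNAs and the histone genes were not matched for length or for overlap with other genes. What part of the reads of the core histone genes came from tailed or from untailed RNA was not tested.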

How the data were processed

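The submitters' processing notes name the builds GRCm39 and GRCh38.p13 and, as tools, edgeR, R 4.1.0, Subread 2.0.3, featureCounts and STAR 2.7.9a, with no role for any of them. The strand setting, and how multi-mapping reads were treated, are not given in the sources used. Per the labels' protocols, RNA was extracted with RNeasy Mini and libraries were made with a Kapa mRNA kit. The authors deposited unnormalized counts of reads for each gene and library, beside a gene length in bases. Rows with no symbol held 0.345% of all counts.

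Gene names, transcripts and overlaps came from GENCODE M21 and RefSeq on GRCm38, an older build, so gene coordinates are not given. Genes passed edgeR's filterByExpr (minimum count 10, minimum total 15); counts were scaled by TMM, and DS38 was compared with DMSO by the two-sided quasi-likelihood test in edgeR 4.0.16 (R 4.3.3), with Benjamini-Hochberg adjustment over all 17679 genes and a threshold of 0.05. The common coefficient of variation was 0.0330. Counts of pairs of replicates differed by more than sampling noise. The chi-square per degree of freedom was 8.31 to 9.37 for pairs of DMSO libraries and 2.94 to 3.63 for pairs of DS38 libraries. CPM per kilobase used the deposited gene length. Scripts were tested on simulated data. Python 3.11.15 and matplotlib 3.10.9 were used for summaries and plots.

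The genes and lists were chosen with earlier results of these data known. Named by rule were the 3 genes of highest CPM and the 2 of smallest p in each class, all genes past the threshold and those at 0, and from other lists the 3 of smallest p past it in each direction, or the 2 of smallest p where none passed. Alternatives were RLE scaling, library size alone, no filter, at least 1 CPM in 3 libraries, DESeq2 1.42.0, limma-voom (limma 3.58.1), robust dispersion, a replicate block, thinning to the smallest library and leaving out each library. Alternatives for the S phase and linker histone lists were added after seeing the data.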

Additional observations from a re-analysis of the deposited data

How the results depend on the processing

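The low counts of most of these genes limit the comparison: 38 of the 44 tested had a mean under 2 CPM. The number of core histone genes that rose (1) was 0 to 1 when single libraries were left out, and the number that fell (3) was 1 with DESeq2, which gave an adjusted p for 24 of them, and 1 to 3 when single libraries were left out. Of the other lists, processing genes that rose (1) became 4 with library size alone, 3 with no filter, 2 with limma-voom, 2 with robust dispersion and 0 to 3 when single libraries were left out. Variant genes that rose (1) became 3 with library size alone and 1 to 3 without single libraries, and those that fell (0) became 1 with RLE scaling, 1 with the stricter filter and 0 to 1 without single libraries. Chaperones that fell (17) became 10 with library size alone, and S phase genes that rose (0) became 1. The log2 ratio of summed H2B levels moved from -0.12 to -0.087 with library size alone, and that of H2A from -0.08 to -0.042.

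The sign turned for 4 genes whose estimates lay near 0. H3c3 was between -0.0020 and 0.38 when single libraries were left out, turning without DS38 replicate 1. H3c8 was at 0.060 after thinning and between -0.16 and 0.10 without single libraries, turning without DMSO replicate 1 or DS38 replicate 2. H4c11 was at -0.0041 after thinning. H4c12 was at 0.0021 after thinning and between -0.15 and 0.13 without single libraries, turning without DMSO replicate 3 or DS38 replicate 3. None of these passed the threshold, and the cause was not tested. Over the single genes named and all alternatives, 254 values kept direction and side of the threshold, 15 lost the call, 7 gained it and 8 turned sign.

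Same-numbered libraries did not deviate together (correlations 0.035, -0.011 and -0.027), and the labels give the numbers no shared source. With the replicate number as a block, 5 core histone genes passed, the 4 above and H4c9, 4 lower and 1 higher.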
